A study of Mus musculus with 12 samples.

Results

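Messenger RNA was sequenced from the amygdala of 12 female C57/BL6 mice, and the 10 genes described here form the core of the circadian clock: Arntl, Clock, Per1, Per2, Per3, Cry1, Cry2, Nr1d1, Nr1d2 and the output gene Dbp. They were taken from the deposited table by matching its Ensembl identifiers to these symbols in GENCODE M21, which gave 10 of 47729 genes, each with 1 row. The mice, nulliparous and genetically normal, were of a single isogenic strain and went through the elevated plus maze at 9 weeks, the light/dark box at 10 weeks and the 3-chamber social interaction test at 11 weeks of age. The labels place 3 of them in a less anxious, 4 in an anxious and 4 in a more anxious group by predicted anxiety state, and give mouse 5 no group. Behavior did not follow the labels in every mouse. Of the 12 mice, more anxious mouse 6 spent the most time in the light (46.6%) and on the open arms (29.2%). Its percentage of distance in the light (41.9%) was also the highest. More anxious mice 2, 9 and 10 had the lowest open-arm times (2.33%, 4.30% and 3.25%). The study set these groups from the tertiles of a principal component of the same RNA-seq data, so the groups are not independent of expression and the p-values between them are not evidence from a separate measurement. The hour of tissue collection is not given in the sources used here, so time of day and anxiety group cannot be told apart in any difference below.

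The clock is a transcriptional loop that nearly every cell of the body runs. The proteins of Arntl (also called Bmal1) and Clock pair up and switch on genes that carry an E-box, among them the Per and Cry genes, whose products return to the nucleus and block that pair. A further loop runs through Nr1d1 and Nr1d2 (REV-ERBα and REV-ERBβ), nuclear receptors that repress Arntl by way of ROR elements, while Dbp drives genes through D-boxes. In rodent tissue Arntl is therefore high when Dbp, Nr1d1 and the Per genes are low. Per1 and Per2 also respond within the hour to neuronal activity and to glucocorticoids, apart from the loop.

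Depth ran from 31745630 to 45142355 estimated counts in the 11 grouped mice and was 32682574 in mouse 5. Levels are given as CPM, the counts per 1000000 counts of the library after scaling by the trimmed mean of M-values. The lowest count of any clock gene was 418, for Per2 in mouse 3, so counting error is small beside the spread between mice. Each mouse is 1 library, all libraries were sequenced in 1 run, and no further batch is labelled. The excitatory marker Slc17a7, the basolateral marker Rspo2 and the central amygdala marker Prkcd were detected in every grouped mouse, at no less than 678, 5.70 and 7.96 CPM. Since these are bulk samples, fewer cells of a type and less RNA per cell cannot be told apart.

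In each library, the deviation of the 12128 genes with a mean of at least 5 CPM and a known sequence was regressed on the GC content of their transcripts. The slope ran from -0.22 log2 units per 10 GC points in mouse 3 and -0.11 in mouse 12 to 0.12 in mouse 6 and 0.15 in mouse 9. By group, it was -0.22 to 0.07 in the less anxious, -0.09 to 0.10 in the anxious and -0.02 to 0.15 in the more anxious mice, so that the groups overlapped. Clock genes lie at both ends of this scale, from 41.4% GC in Clock, 45.4% in Nr1d2, 47.8% in Cry1 and 48.7% in Arntl through 52.3% in Per3 and 52.6% in Cry2 to 56.0% in Per2, 56.4% in Nr1d1, 56.7% in Dbp and 58.8% in Per1. The median gene was at 50.6%. Mouse 3 also stood apart in the clock genes themselves, with the lowest level of 4 of the 10 among the 11 mice and the highest level of another 4.

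RefSeq start sites (GRCm38.p6) were given for 9 of the 10 genes, all except Per2, and the 13 windows of 250 bases before and 50 bases after the start were searched on both strands. A perfect E-box, CACGTG, was found in Per1 and Cry1, and the near-match CACGTT, read as AACGTG on the printed strand, in Cry1, Cry2 and Nr1d1. Per3 held 2 D-boxes, TTATGTAA, and the second window of Arntl held the ROR element TAGGTCA, 30 bases past its start. Of the 32851 RefSeq windows of this length, 7.15% held the E-box, 4.68% the near-match, 0.938% the D-box and 2.61% the ROR element. The windows of Clock, Nr1d2 and Dbp held none of these 4 motifs. The 250 bases upstream are printed for the 5 genes with one of these motifs before the start. They run 5′ to 3′ with the matched motifs in capitals, at chr11:69098699-69098948 (plus strand) for Per1, chr10:85185055-85185304 (minus) for Cry1, chr2:92434070-92434319 (minus) for Cry2, chr4:151044666-151044915 (minus) for Per3 and chr11:98775378-98775627 (minus) for Nr1d1.
Per1: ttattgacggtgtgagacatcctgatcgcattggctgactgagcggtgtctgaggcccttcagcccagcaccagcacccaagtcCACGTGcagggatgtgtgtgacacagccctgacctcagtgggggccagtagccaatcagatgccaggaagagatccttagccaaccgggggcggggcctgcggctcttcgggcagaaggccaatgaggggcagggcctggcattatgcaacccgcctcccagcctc
Cry1: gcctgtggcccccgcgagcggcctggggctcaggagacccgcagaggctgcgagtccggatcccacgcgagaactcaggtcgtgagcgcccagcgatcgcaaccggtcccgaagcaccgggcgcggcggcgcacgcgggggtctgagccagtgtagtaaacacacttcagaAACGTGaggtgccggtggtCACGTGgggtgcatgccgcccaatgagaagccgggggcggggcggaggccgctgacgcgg
Cry2: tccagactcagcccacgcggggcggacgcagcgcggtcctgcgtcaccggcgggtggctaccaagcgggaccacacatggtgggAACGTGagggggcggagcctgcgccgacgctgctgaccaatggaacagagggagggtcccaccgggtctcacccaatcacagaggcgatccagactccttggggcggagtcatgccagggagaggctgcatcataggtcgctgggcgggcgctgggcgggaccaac
Per3: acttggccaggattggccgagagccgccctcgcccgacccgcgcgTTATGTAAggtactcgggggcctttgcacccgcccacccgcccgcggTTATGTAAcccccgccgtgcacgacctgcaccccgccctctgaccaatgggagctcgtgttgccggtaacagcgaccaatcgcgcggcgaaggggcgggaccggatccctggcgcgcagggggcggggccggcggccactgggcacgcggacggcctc
Nr1d1: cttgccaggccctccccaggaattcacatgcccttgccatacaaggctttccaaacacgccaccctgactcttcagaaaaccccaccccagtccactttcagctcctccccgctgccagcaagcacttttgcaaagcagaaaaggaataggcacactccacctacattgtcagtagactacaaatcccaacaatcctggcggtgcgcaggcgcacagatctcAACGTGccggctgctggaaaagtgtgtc
Counted from the start site, the E-box of Per1 lay at -166 and that of Cry1 at -60. The near-match lay at -79 in Cry1, -166 in Cry2 and -28 in Nr1d1, and the D-boxes of Per3 lay at -205 and -158. A match of letters is a description of the sequence and not a measured site.

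All 10 genes were expressed in every mouse. Per kilobase of annotated exon, Nr1d1 had the highest level, 23.2 ± 3.48 CPM per kb (SD, n = 11). Cry2 (14.4 ± 1.23), Dbp (13.9 ± 2.47), Nr1d2 (12.7 ± 1.62) and Per1 (10.0 ± 2.34) came next on the same scale. Per2 was at 7.18 ± 3.59 CPM per kb, Clock at 5.22 ± 0.588, Cry1 at 4.50 ± 0.423, Arntl at 4.23 ± 0.400 and Per3 at 3.51 ± 0.363. In this order only Nr1d1 and Cry2 differed by more than the sum of their SDs, and every later pair of neighbours lay within them.

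The genes also differed in how steady they were from mouse to mouse. Per2 had a coefficient of variation of 49.98%, a higher value than in 99.1% of the 6801 genes whose mean lies within the range of the clock genes. Per1 followed at 23.4% and Dbp at 17.7%, while Cry2, Cry1 and Arntl varied by 8.58%, 9.40% and 9.45%. The median over the 10 genes was 12.0%, close to the 11.9% of the comparison genes. The spread was thus largest in a Per gene, and the set as a whole was as steady as other genes of its abundance.

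**Figure D1:**
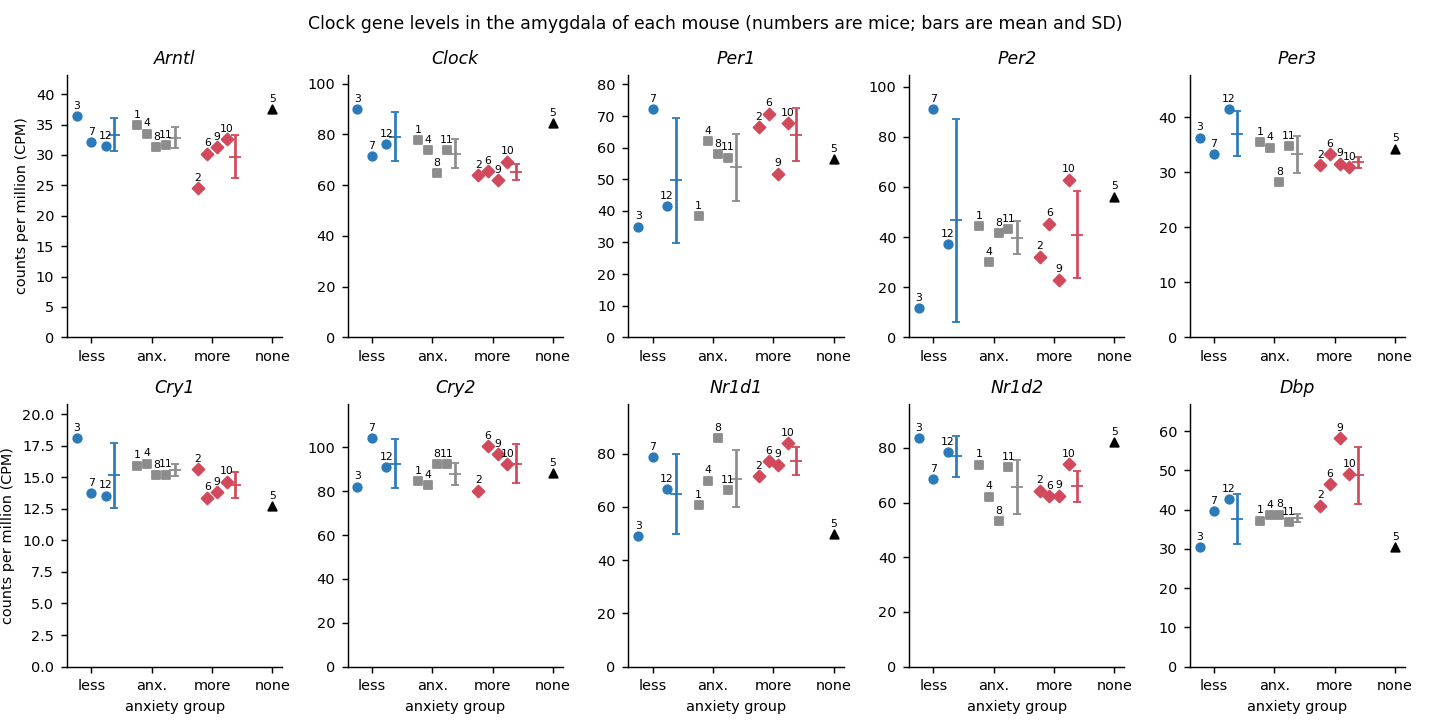
Levels of the 10 clock genes in CPM (vertical axis, starting at 0) in each mouse, by anxiety group (horizontal axis; less, anx. and more stand for less anxious, anxious and more anxious, none for mouse 5). Points carry the number of the mouse and bars give the mean and SD of a group. Per2 spreads from 11.6 to 91.1 CPM within the less anxious group, while Clock lies lower in every more anxious mouse than in any less anxious one.

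Of the activators, Clock (chr5:76209868-76304792, minus strand of GRCm38), the partner of Arntl, stood at 90.1, 71.3 and 76.0 CPM in less anxious mice 3, 7 and 12. It was between 64.6 and 77.8 CPM in the 4 anxious mice and at 63.9, 65.6, 61.9 and 69.3 CPM in more anxious mice 2, 6, 9 and 10. The less and more anxious ranges of Clock did not overlap. Its mean was 79.1 ± 9.74 CPM (SD, n = 3) in the less anxious group against 65.2 ± 3.13 (SD, n = 4) for more anxious animals, a log2 fold change of -0.24 with a standard error of 0.09. In edgeR this gave an unadjusted p of 0.02001 and an adjusted p of 0.457, so Clock was not called.

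Arntl (chr7:113207465-113314126, plus strand), the E-box binding partner without which the loop stops, was steadier. It lay at 36.4, 32.1 and 31.5 CPM in the less anxious mice, between 31.3 and 34.9 in the anxious mice, and at 24.6, 30.2, 31.3 and 32.7 CPM in the more anxious mice. Mouse 2 alone lay well below the rest. The ranges overlapped, and the difference of more against less anxious was -0.15 ± 0.11 on the log2 scale (SE, adjusted p = 0.767).

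Among the repressors, Per1 (chr11:69095217-69109960, plus strand) was at 35.0, 72.3 and 41.5 CPM in less anxious mice 3, 7 and 12. It was at 38.4, 62.0, 57.9 and 56.8 CPM in anxious mice 1, 4, 8 and 11, and at 66.4, 70.7, 51.8 and 67.7 CPM in more anxious mice 2, 6, 9 and 10. Mice 1, 3 and 12 formed the low end, and they came from 2 groups. More against less anxious, the log2 fold change of Per1 was 0.32 with a 95% interval from -0.03 to 0.68 (adjusted p = 0.620).

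Per2 (chr1:91415982-91459324, minus strand), a close relative with the same role, had the widest range, 7.85-fold between the lowest and highest mouse. Both ends were less anxious mice: mouse 3 at 11.6 CPM and mouse 7 at 91.1, with mouse 12 at 37.1. The anxious mice lay between 30.1 and 44.2 CPM, and more anxious mice 2, 6, 9 and 10 were at 32.2, 45.4, 23.0 and 62.9. The log2 fold change of Per2, -0.10, had an interval from -1.41 to 1.21, so that the data set no useful limit on a difference in either direction.

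Per3 (chr4:151003652-151044665, minus strand), a relative that the loop can run without, was at 36.3, 33.3 and 41.5 CPM in the less anxious mice, between 28.2 and 35.6 in the anxious mice and between 31.0 and 33.3 in the more anxious mice. Its range was 1.47-fold over all mice, narrow beside Per1 and Per2. The log2 fold change was -0.20 ± 0.11 (SE, adjusted p = 0.649), on the other side of 0 from Per1.

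The cryptochromes, the main repressors of the activator pair, had the smallest log2 differences of the 10 genes for more against less anxious mice. Cry1 (chr10:85131700-85185064, minus strand) averaged 15.1 ± 2.57 CPM (SD, n = 3) in the less, 15.6 ± 0.470 (n = 4) in the anxious and 14.4 ± 1.01 (n = 4) in the more anxious mice. Cry2 (chr2:92403646-92434043, minus strand) averaged 92.5 ± 11.2, 88.0 ± 4.98 and 92.5 ± 8.82 CPM in the same order. Their intervals for more against less anxious, on the log2 scale, were -0.31 to 0.22 for Cry1 and -0.24 to 0.20 for Cry2.

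Of the receptors, Nr1d1 (chr11:98767932-98775333, minus strand) was at 49.0, 78.7 and 66.7 CPM in less anxious mice 3, 7 and 12 and between 60.5 and 85.9 in the anxious mice. More anxious mice 2, 6, 9 and 10 had 71.4, 77.2, 75.8 and 84.1 CPM, inside the range of the anxious mice. The difference of more against less anxious was 0.22 ± 0.12 on the log2 scale (SE, adjusted p = 0.654). The 3′ end of Nr1d1 shares 263 bases with Thra on the other strand, a gene with far more reads in this tissue, and whether the counting used strand is not given in the sources used here.

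Nr1d2 (chr14:18204054-18239127, minus strand) pointed the other way from its relative. It stood at 83.6, 68.7 and 78.4 CPM in the less anxious mice, between 53.2 and 73.9 in the anxious mice and at 64.4, 62.4, 62.6 and 74.2 in the more anxious mice. The log2 fold change of more against less anxious was -0.16 ± 0.10 (SE, adjusted p = 0.683).

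Dbp (chr7:45705088-45710203, plus strand), the D-box activator, whose level swings strongly over the day in many tissues, had the smallest p of the 10 genes. It was at 30.5, 39.7 and 42.6 CPM in less anxious mice 3, 7 and 12, between 36.7 and 38.7 in all 4 anxious mice, and at 41.0, 46.6, 58.3 and 49.1 in more anxious mice 2, 6, 9 and 10. Every more anxious mouse lay above every anxious one, and mouse 2 lay below mouse 12. For more anxious against anxious mice, edgeR gave 0.37 ± 0.12 on the log2 scale (SE, unadjusted p = 0.00972, adjusted p = 0.999). How many of all genes separate these 2 groups was not counted. The log2 fold change of Dbp was 0.37 ± 0.13 (SE) for more against less anxious mice, while anxious against less anxious mice gave 0.00 ± 0.13. The unadjusted p was 0.0139 over the 3 groups and 0.0151 for more against less anxious, and the adjusted p-values were 0.644 and 0.429. Dbp shares 539 exon bases with Sphk2 on the other strand.

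In all, none of the 10 genes passed an adjusted p of 0.05 in either comparison. Across the table, 2 of 26963 genes (0.00742%) passed over the 3 groups and 12 (0.0445%) for more against less anxious. At an unadjusted p under 0.05, 1 of the 10 clock genes (Dbp) passed over the 3 groups, against 6.36% of all genes, and 2 of 10 (Dbp and Clock) for more against less anxious, against 8.84%. The less and more anxious ranges were separate for 1 of 10 clock genes (Clock), against 10.0% of the 15891 genes with a mean of at least 1 CPM. These shares of the clock genes are near those of the table. DESeq2 gave no call among the 10 either, with Dbp lowest at an adjusted p of 0.256 over the 3 groups. The median log2 fold change over the 10 genes was -0.07, with a positive value for 3 and a negative one for 7, and the median of the 12159 genes with at least 5 CPM was 0.00.

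**Figure D2:**
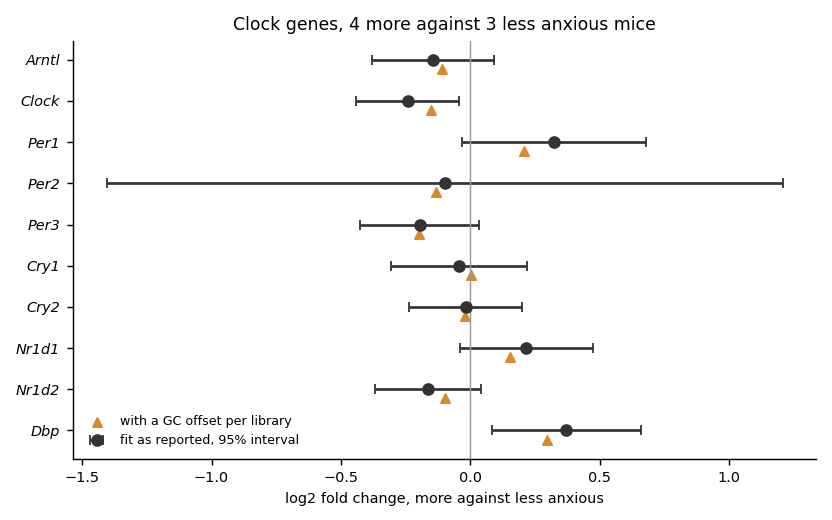
Log2 fold change of each clock gene in the 4 more against the 3 less anxious mice (horizontal axis), with its 95% interval from edgeR. Triangles give the value after a GC offset for each library. Only the intervals of Clock and Dbp leave out 0, and both genes' triangles lie closer to 0.

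Leaving out single mice moved these values. Without mouse 3, the log2 fold change of Dbp went from 0.37 to 0.24 (edgeR adjusted p = 0.605) and that of Clock from -0.24 to -0.18 (adjusted p = 0.602). Without mouse 9, the values were 0.24 and -0.18 (edgeR adjusted p = 0.799 for both). Without either mouse, neither gene kept an unadjusted p under 0.05 for more against less anxious, whereas over the 3 groups Dbp kept it without mouse 3 and not without mouse 9. Dbp was higher, at 0.45 without mouse 2 (adjusted p = 0.293) and at 0.47 without mouse 12 (adjusted p = 0.505). Per1 went from 0.32 to 0.57 without mouse 7 (adjusted p = 0.499), with unadjusted p-values under 0.05 in both comparisons. With an offset for GC content, chosen after the slopes had been seen, Clock was at -0.15 (edgeR adjusted p = 0.683) and Dbp at 0.30 (adjusted p = 0.588).

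Markers of other cells differed between the same groups without any being called. The summed level of 5 astrocyte markers was 1063 to 1298 CPM in the less and 795 to 1011 in the more anxious mice, and all 5 had negative log2 fold changes. For 5 endothelial markers it was 138 to 194 and 90.6 to 115 CPM, again with all 5 negative and 4 of them at an unadjusted p under 0.05. Of all genes, 8.84% passed at that level. Of the 5 oligodendrocyte and the 5 microglial markers, all 10 had negative values too, with ranges of the sums that overlapped between the groups. No marker of these 4 lists was at 0 in any mouse. The neuronal list went mostly the other way, with 4 of 6 markers higher, 3 of these at an unadjusted p under 0.05, and 2 lower. Its sums were 4354 to 4694 CPM in the less and 4538 to 5588 in the more anxious mice. Of 8 amygdala markers, 5 were higher and 3 lower, with 1 in each direction at an unadjusted p under 0.05. The amygdala sums were 1253 to 1761 CPM in the less and 1617 to 2197 in the more anxious mice. All 5 striatal markers were negative (median -0.82, sums of 123 to 418 and 84.8 to 233 CPM), as were 6 of 7 choroid plexus markers (median -0.39, sums of 16.3 to 24.7 and 9.93 to 17.4 CPM). Of 7 hypothalamic markers, 6 were higher (median 1.31, sums of 1.03 to 5.66 and 3.74 to 24.3 CPM). Of 5 pituitary markers, 3 were lower and 2 higher (median -2.92, sums of 3.97 to 4.69 and 2.26 to 2.88 CPM). In the anxious mice the pituitary sums ran from 2.78 to 57.5 CPM. Over the 3 groups, 4 of these 5 had an unadjusted p under 0.05, against 6.36% of all genes. Both lists were at low levels in the less and more anxious mice, with some markers at 0 in some mice. The part of these cells in the values of Clock and Dbp was not tested.

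Beyond the 10 genes, 33 further genes of the clock were examined in 3 lists: other transcription factors, modifiers of clock proteins, and outputs that cycle in many tissues. None was called in either comparison, and 2 of the 33 had an unadjusted p under 0.05 over the 3 groups, a share near the 6.36% of all genes. Tef, a relative of Dbp that binds the same D-box, was the lower of these at 0.0134 (adjusted p = 0.644), with 211 to 478 CPM in the less, 242 to 266 in the anxious and 226 to 342 in the more anxious mice. Its log2 fold change of -0.41 ± 0.14 (SE) had the opposite sign to that of Dbp. Ppp1cb, a catalytic subunit of protein phosphatase 1, lay at 219 to 262 CPM in the less and 163 to 208 in the more anxious mice (-0.31 ± 0.12). The other 4 with the smallest p were Nfil3, a repressor at D-boxes (0.25 ± 0.17), Dtx4 (-0.03 ± 0.11), Ciart, a repressor of the Arntl and Clock pair (0.22 ± 0.13), and Fbxw11, which targets PER proteins for degradation (0.15 ± 0.09).

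The other factors differed in abundance more than between groups. Tef was the most abundant by far, and Hlf, the third gene of its family, ranged from 56.2 to 115 CPM. Npas2, which can replace Clock, ranged from 28.8 to 46.6 CPM, and Arntl2, a paralogue of Arntl, from 10.1 to 24.5. The repressors Bhlhe40 and Bhlhe41 ranged from 45.7 to 90.6 and from 26.1 to 37.3 CPM, Cipc from 62.9 to 85.5 and Ciart from 8.86 to 13.2. Rora and Rorb, which oppose the Nr1d receptors at ROR elements, ranged from 22.8 to 40.2 and from 17.8 to 27.7 CPM, and Nfil3 from 6.03 to 11.9. All were detected in every mouse.

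Behavior was compared with each gene directly, since 7 measures are labelled for each mouse, apart from a missing 3 min social ratio in mouse 4. None of the 70 pairs of a clock gene and a measure was called by edgeR, and the smallest adjusted p was 0.603. At an unadjusted p under 0.05, 2 pairs passed. Clock rose by 0.10 ± 0.04 log2 units (SE) per SD of the percentage of distance in the light (edgeR adjusted p = 0.848), where 5.80% of all genes passed. Per2 fell by 0.47 ± 0.19 per SD of the ratio of time beside the stranger mouse over the opening 3 min (adjusted p = 0.603, n = 10), where 7.65% passed. For the 5 measures with no clock gene at this level, the share of all genes was 6.56% and 8.05% for the social ratios over 5 and 10 min, 6.97% for total entries in the maze, 5.84% for time on its open arms and 3.55% for time in the light.

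The relation between the genes across mice was examined next, because in a running clock Arntl is high when Dbp, Nr1d1 and the Per genes are low. Over the 11 grouped mice, 18 of the 45 pairs had an unadjusted permutation p under 0.05 for Pearson's r of log2 CPM, 9 positive and 9 negative, and 4 were called after adjustment over the 45. The share of all gene pairs at this level was not counted, so these counts are not shown to be particular to the clock genes. Clock fell where Nr1d1 rose (r = -0.85, p = 0.00157, adjusted p = 0.0339). Spearman's rho for that pair was -0.75 (p = 0.0108, adjusted p = 0.0825), and r was -0.72 without the 2 mice farthest from the median of Clock.

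Per1 rose with Nr1d1 (r = 0.80, p = 0.00226, adjusted p = 0.0339). The rho of Per1 and Nr1d1 was 0.75 (p = 0.0113, adjusted p = 0.0825), but r fell to 0.48 without the 2 outermost mice, so that it rests in part on those mice. Cry1 and Cry2 opposed each other (r = -0.82, p = 0.00201, adjusted p = 0.0339; rho = -0.76, p = 0.00852, adjusted p = 0.0825), with r = -0.79 without the 2 outermost mice. Clock and Nr1d2 rose together (r = 0.79, p = 0.00393, adjusted p = 0.0442; rho = 0.68, p = 0.0256, adjusted p = 0.128), with r = 0.71 without them. By rank, 2 other pairs were called: Per3 with Nr1d1 (rho = -0.86, p = 0.00113, adjusted p = 0.0434; r = -0.66, p = 0.0330) and Per3 with Clock (rho = 0.85, p = 0.00193, adjusted p = 0.0434; r = 0.69, p = 0.0222).

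The number of calls changed with single mice. None of the 45 pairs was called without mouse 1, 3, 6, 7 or 11, whereas 8 were called without mouse 2 and 9 without mouse 12. Without mouse 3, r was -0.67 for Clock with Nr1d1, 0.68 for Per1 with Nr1d1, -0.82 for Cry1 with Cry2 and 0.70 for Clock with Nr1d2, with adjusted p-values of 0.224, 0.224, 0.164 and 0.224. Without mouse 1, 6, 7 or 11 the r of Clock with Nr1d1 stayed between -0.87 and -0.83 and that of Cry1 with Cry2 between -0.82 and -0.78, so that the calls but hardly the values were lost.

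Dbp and Arntl, opposite in phase in most tissues, had r = -0.34, not among the 18. The 10 genes fell into 2 blocks instead. Arntl, Clock, Cry1, Nr1d2 and Per3 were positively related in all 10 of their pairs, Cry2, Dbp, Nr1d1, Per1 and Per2 in all 10 of theirs, and the 25 pairs between the blocks were negative in 24 cases. The blocks were also the 5 genes of lower and the 5 of higher transcript GC content. After the curve of each library on GC content was removed from the log2 values, an alternative chosen after the blocks had been seen, no pair was called and 9 had an unadjusted p under 0.05. Then 8 of 10, 10 of 10 and 4 of 25 pairs were positive. Of the 4 called pairs, Cry1 with Cry2 was hardly changed (r = -0.79, adjusted p = 0.119) and Per1 with Nr1d1 was at 0.72 (adjusted p = 0.125), whereas Clock with Nr1d1 went to -0.58 (adjusted p = 0.246) and Clock with Nr1d2 to 0.37 (adjusted p = 0.527). Arntl with Clock stood at 0.75 after and 0.70 before.

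**Figure D3:**
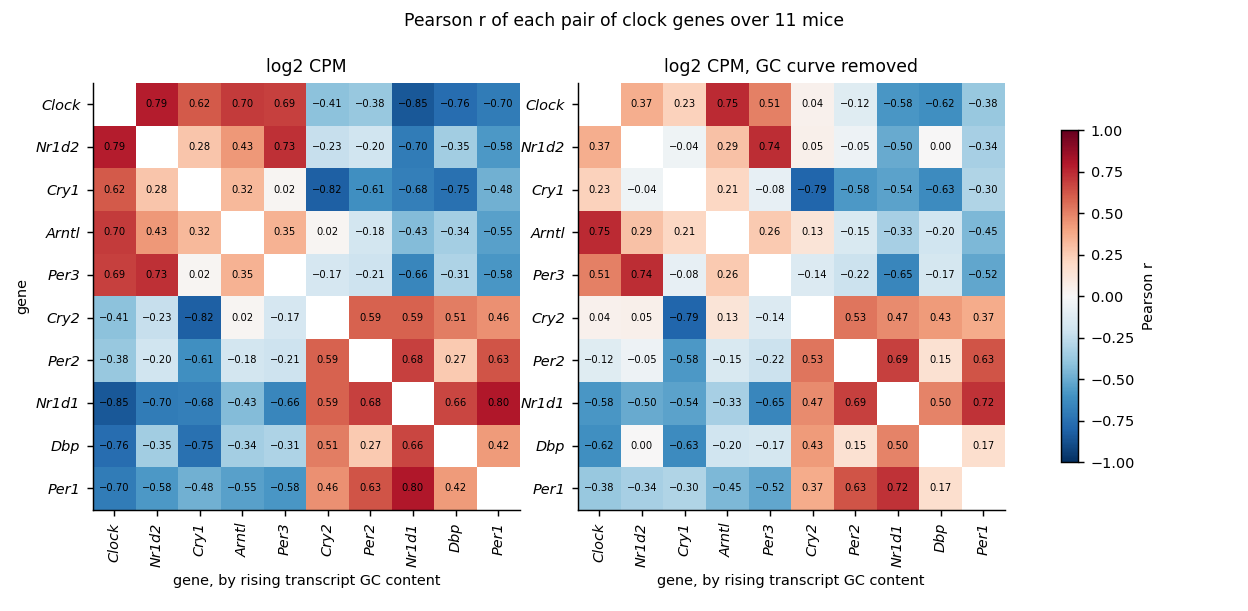
Pearson's r over 11 mice for each pair of clock genes, from log2 CPM (left) and after the GC curve of each library was removed (right). Genes are ordered by rising GC content of their transcripts on both axes, color gives r from -1 to 1, and the diagonal is blank. The blue block between the genes of lower and higher GC is paler on the right, while Cry1 with Cry2 keeps its color.

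The GC slope of the libraries was related to 7 of the 10 genes at a permutation p under 0.05, where 25.7% of the 12159 genes with at least 5 CPM passed, a test added after seeing the data. The slope was itself fitted to nearly all of these genes, so that genes of extreme GC content tend to follow it. After adjustment over the 10, 6 were called by r and 4 by rank. Clock had r = -0.91 (p = 0.000260, adjusted p = 0.00260; rho = -0.89, p = 0.000510) and r = -0.82 without the 2 mice of the most extreme slope. Nr1d2 had r = -0.87 (p = 0.000700, adjusted p = 0.00350; rho = -0.82, p = 0.00328), and Nr1d1 r = 0.82 (p = 0.00198, adjusted p = 0.00660; rho = 0.74, p = 0.0128), with r = -0.76 and 0.63 without those mice. Per1 (r = 0.74, p = 0.00926, adjusted p = 0.0231), Dbp (r = 0.67, p = 0.0227, adjusted p = 0.0396) and Per3 (r = -0.67, p = 0.0238, adjusted p = 0.0396) followed, with rho of 0.60, 0.59 and -0.72 (p = 0.0567, 0.0608 and 0.0162) and r of 0.43, 0.57 and -0.52 without those mice. Per2 was related least (r = 0.40, p = 0.229; rho = 0.15, p = 0.654), and its r was -0.26 without them. The slope was computed from 12128 genes, and its part in the relations between clock genes was not tested beyond the removal of the curve.

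**Figure D4:**
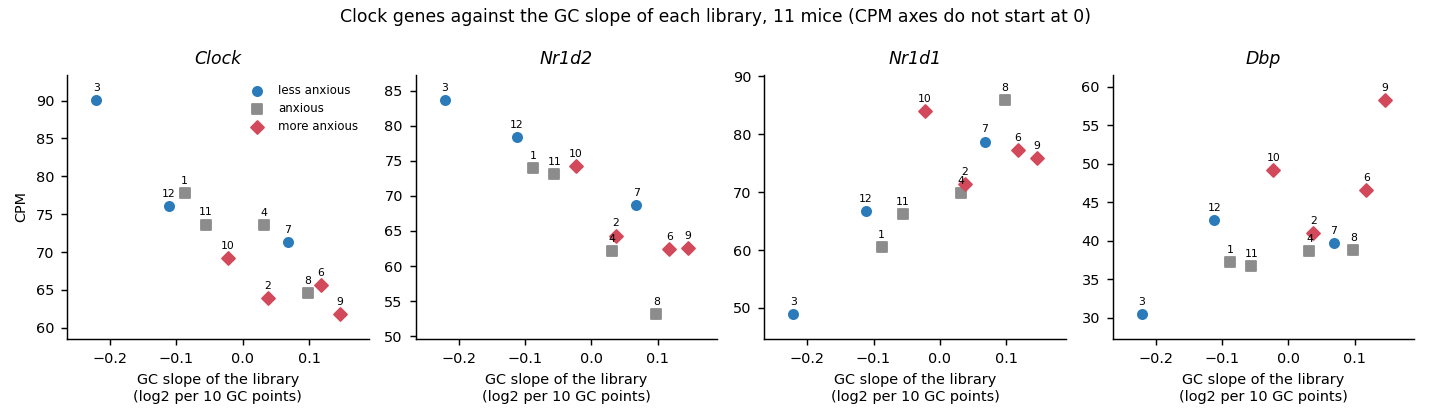
Level of Clock, Nr1d2, Nr1d1 and Dbp in CPM (vertical axes, not starting at 0) against the GC slope of each library in log2 units per 10 GC points (horizontal axis), 1 point per mouse with its number, colored by group. Clock and Nr1d2 fall along the slope from mouse 3 at -0.22 to mouse 9 at 0.15, and Nr1d1 rises.

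Per1 and Per2 also respond to activity and glucocorticoids, and both inputs were scored as the mean of standardized log2 levels of 10 genes each. The immediate-early score, from Fos, Egr1, Arc, Npas4 and 6 others, was -2.14 in mouse 3 and between -0.66 and 1.04 in the other mice. Per1 was related to it (r = 0.83, permutation p = 0.00131, adjusted p = 0.0262 over the 20 relations of 10 genes and 2 scores). What share of all genes was related to this score was not counted. The rho was 0.74 (p = 0.0125, adjusted p = 0.125), and r was 0.72 without mice at the ends of the score. No relation was called without mouse 3, 10, 11 or 12, 2 were called without mouse 9 and 3 without mouse 4. The relation of Per1 stood at r = 0.80 (adjusted p = 0.0390) after the GC curve was removed, and at 0.74 (adjusted p = 0.307) without mouse 3. The score itself had r = 0.57 with the GC slope (p = 0.0629; rho = 0.22, p = 0.522) and -0.19 without the 2 mice of the most extreme slope.

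Nr1d1 (r = 0.78, p = 0.00807; rho = 0.55, p = 0.0880) and Per2 (r = 0.74, p = 0.0137; rho = 0.45, p = 0.171) had unadjusted p-values under 0.05 with the immediate-early score but were not called (adjusted p = 0.0807 and 0.0913). Both relations rested on the outer mice, since r fell to 0.32 and 0.27 without the 2 farthest. On residuals from the group means, both were called (Nr1d1 at r = 0.77, adjusted p = 0.0329, and Per2 at 0.80, adjusted p = 0.0234). These p-values on residuals are too small, because the permutation did not allow for the group means removed. With the score of glucocorticoid targets such as Fkbp5, Sgk1 and Tsc22d3, Per1 had r = 0.67 (p = 0.0252, adjusted p = 0.126; rho = 0.75, p = 0.00988) and r = 0.67 without the 2 farthest mice. On the residuals, Per1 was called with that score too (r = 0.83, adjusted p = 0.0194), with the same limit. On log2 CPM itself, no other clock gene had an unadjusted p under 0.05 with that score.

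**Figure D5:**
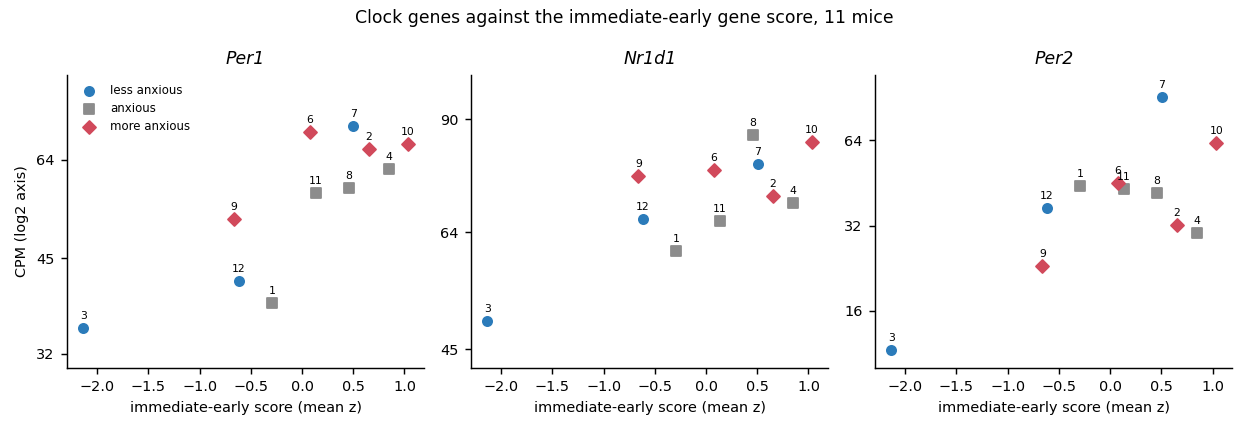
Levels of Per1, Nr1d1 and Per2 in CPM (vertical axes, log2 scale) against the immediate-early gene score (horizontal axis, mean of standardized log2 levels of 10 genes), 1 point per mouse with its number, colored by group. Mouse 3 lies at a score of -2.14 with the lowest level of all 3 genes, and the relation of Per1 remains among the other mice better than those of Nr1d1 and Per2.

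Genes whose pattern was most like that of Dbp and Arntl were taken from 12159 genes with a mean of at least 5 CPM over the 11 mice, as a description with no test. For Dbp the 5 highest r were those of Gm2415 (0.94), Cux2 (0.93), Map3k9 (0.92), Phospho1 (0.91) and Cdk5r2 (0.91), and the 5 lowest those of Sema5a (-0.97), Zfp939 (-0.96), Ankrd6 (-0.94), Rlim (-0.93) and Abce1 (-0.93). For Arntl they were Magi3 (0.89), Cript (0.84), Cd302 (0.83), Cab39 (0.83) and Dclk3 (0.83) at one end and Jakmip3 (-0.90), Unk (-0.88), Ncapd2 (-0.85), Safb2 (-0.85) and Cpsf4 (-0.85) at the other. No clock gene is among these. Further places were looked up for the core genes, the other factors, the outputs and the genes of the 2 scores, but not for the modifiers of clock proteins. Clock was in place 127 of the ranking for Arntl. For Dbp the best placed of those looked up were Ciart at 286 (r = 0.71), the immediate-early gene Egr4 at 459 (r = 0.67) and Nr1d1 at 463 (r = 0.66). The genes most like Dbp had a median GC content of 58.1% and those least like it 44.0%. For Arntl the medians were 46.9% and 55.0%. All these genes share the same 11 libraries, and for Arntl the GC contents at the 2 ends overlapped (43.5% to 55.5% and 53.4% to 57.7%). Without the 2 mice farthest from the median, the r of these genes with Dbp stayed between 0.76 and 0.86 at one end and between -0.92 and -0.75 at the other. For Arntl they spread from -0.23 (Cript) to 0.71 (Dclk3) and from -0.70 to -0.46, so that the likeness to Arntl at the upper end rests on those 2 mice for Cript and in part for others.

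For Per2 and Clock the same ranking was added after seeing the data. Per2 was most like Atp1b2 (r = 0.94), Cyfip1 (0.93) and Golgb1 (0.92), and the immediate-early genes Arc (r = 0.84) and Fos (0.80) stood at places 36 and 81, with the clock gene Bhlhe40 at 58 (0.82). Clock was most like Rmnd5a (r = 0.97), Taok1 (0.96) and Chic1 (0.96), and least like Tmem259 (-0.96). The 5 genes most like Clock had a median GC content of 42.7% and the 5 least like it 61.9%, the widest gap of the 4 rankings.

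Mouse 5, which the labels put in no group, entered none of the tests above. The study removed it as an outlier in a principal component analysis of expression. It had 23768 genes with a count, against 26378 to 28196 in the grouped mice, so its values below come from a library set aside by the study. Mouse 5 had the lowest Dbp and Cry1 of the 12 mice (30.4 and 12.7 CPM) and the highest Arntl (37.6 CPM). Its Clock and Nr1d2, at 84.5 and 82.2 CPM, and its Nr1d1, at 49.7 CPM, were next to those of mouse 3. Per1 and Per2 did not follow, at 56.5 and 56.1 CPM in mouse 5 against 35.0 and 11.6 in mouse 3. With mouse 5 included, 6 pairs were called in place of 4. Clock with Nr1d1 went to r = -0.87 (adjusted p = 0.00990) and Clock with Nr1d2 to 0.82 (adjusted p = 0.0229). Clock with Dbp (-0.81), Arntl with Clock (0.76), Dbp with Nr1d1 (0.75) and Nr1d1 with Nr1d2 (-0.75) were called as well. Per1 with Nr1d1 at 0.65 (adjusted p = 0.104) and Cry1 with Cry2 at -0.67 (adjusted p = 0.102) were no longer called.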

How the data were processed

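Per the study's methods and the submitters' processing notes, amygdala tissue of each mouse was collected after rapid decapitation, polyadenylated RNA was prepared as stranded libraries and sequenced in 1 run (75-base single-end reads), and Salmon with mm10 gave the values per gene. The table deposited by the authors holds estimated counts, not normalized, for 47729 genes in 12 libraries, all whole numbers here. The release of the annotation and the strand setting are not given in the sources used here. GENCODE M21 (GRCm38) had an entry for 47310 genes (99.1%).

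From these counts, edgeR 4.0.16 (R 4.3.3) fitted a quasi-likelihood model with robust estimation, trimmed-mean scaling and the first principal component as a covariate. The model had 3 groups, and genes with at least 10 counts over the 11 grouped mice entered. The component came from variance-stabilized counts by DESeq2 1.42.0 and carried 20.2% of the variance. P-values were adjusted by Benjamini-Hochberg over all genes tested. Fold changes of the 3 pairs of groups come from 1 fit and share samples. Each behavioral measure was fitted as a single continuous term. Correlations used log2 CPM with a prior count of 2 and two-sided permutation tests with 100000 resamples. GC content is the mean over the transcripts of a gene, and the GC curve of a library is a lowess fit of the deviation from the gene's mean. The fits were tested on simulated counts. Python 3.11.15 was used for the correlations.

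All 10 clock genes are reported. Of the 33 further clock genes, the 6 with the smallest unadjusted p were named, along with the ranges of every other clock factor with a mean of at least 5 CPM. The genes most like Dbp and Arntl were the 5 with the highest and the 5 with the lowest r. The members, lists and tests were chosen with earlier results of these data known. Mouse 5, removed by the study as an outlier, has no group and enters no group test. The mice are separate animals, and replicate numbers do not pair them.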

Additional observations from a re-analysis of the deposited data

Results flagged for a closer look

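In groups of 4 mice, 2 values of the clock genes lay far from the others of their group by Dixon's criterion, in which the gap to the nearest mouse is divided by the whole range. Nr1d2 was at 74.2 CPM in mouse 10, a more anxious mouse whose group was otherwise at or below 64.4 CPM (a gap of 0.837 of the range). Per3 was at 28.2 CPM in mouse 8, an anxious mouse, with the nearest of its group at 34.5 CPM (0.853 of the range). Chance alone flags about 1 in 20 such groups, and 20 were examined. The group of 3 less anxious mice cannot be examined this way.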

How the results depend on the processing

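No clock gene was called over the 3 groups or for more against less anxious mice under any alternative run: DESeq2, its size factors, both other filters, no covariate, robust estimation off, group order as a number, a GC offset and each mouse left out. With the behavioral measures none was called either, under DESeq2, its size factors, no filter, the first component as a covariate, 12 mice and each mouse left out. The number of all genes called did move. Over the 3 groups it was 2 and became 9 with no filter, 0 with filterByExpr, 0 with no covariate, 1 with robust estimation off, 22 with group order as a number and 187 with DESeq2. For more against less anxious it was 12 and became 25, 0, 3, 2, 22 and 305 in the same order, and 4 with the GC offset. Leaving out each mouse gave 0 to 4 and 0 to 24. The cause was not tested. Called pairs of clock genes went from 4 to 0 with the GC curve removed and ran from 0 to 9 without single mice. Called relations with the scores went from 1 to 4 on residuals from the group means and ran from 0 to 3 without single mice. The p-values on residuals are too small, because the permutation did not allow for the group means removed. Of the recomputed log2 fold changes for more against less anxious mice, 180 kept the sign and the side of the threshold and 10 changed sign, all of Per2, Cry1 or Cry2. Cry1 was at 0.0022 with the GC offset and Cry2 at 0.00064 with no covariate. Without single mice, Per2 ran from -0.58 to 0.64, Cry1 from -0.119 to 0.0778 and Cry2 from -0.0691 to 0.0630. No paired analysis was possible because replicate numbers only follow accession order. With 3 or 4 mice a group, and with groups that were set from the same libraries, differences of the size seen in Dbp and Clock did not pass the adjustment over all genes. Depth was not limiting, since every clock gene had at least 418 counts in each grouped mouse.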
